A study of Mus musculus with 6 samples.

Results

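The 34 genes described here encode the folding machinery of the endoplasmic reticulum (ER) and the sensors of the unfolded protein response. They were chosen by name, with earlier results of these data known. All 34 were found among the 20040 entries of a table of transcript levels. The table covers 6 mRNA-seq libraries of cultured cortical neurons from C57BL/6 mouse embryos at embryonic day 18. In 3 libraries the neurons carried a KDM6B knockout (KO), and in 3 they were wild type (WT). Kdm6b encodes an enzyme that takes methyl groups off histone H3 at lysine 27, where they mark silent chromatin, and the study is concerned with the part it plays in cognition. The sources used here do not give which part of the gene was deleted, how the knockout was made, the number of embryos per sample, the days in culture or the embryos' sex. Nothing in the labels ties the replicates to separate cultures or embryos, so p-values reflect how far these libraries scatter, and that scatter may be technical.

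The ER is where secreted and membrane proteins enter the secretory pathway, are glycosylated, form disulfide bonds and fold. When unfolded proteins accumulate there, the kinase and nuclease IRE1 (Ern1), the kinase PERK (Eif2ak3) and the membrane-bound transcription factor ATF6 (Atf6) become active. IRE1 splices Xbp1 mRNA, ATF6 is cut to release a transcription factor, and together these arms raise chaperones and degradation factors. PERK phosphorylates the translation factor eIF2α, which lowers protein synthesis and favours translation of Atf4. Neurons make large amounts of receptors, channels and secreted peptides, all of which pass through the ER.

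Levels are given in TPM, a share of each library's transcripts scaled by gene length and by the library's total. The libraries held at least 19761714 to 23503660 counts in KO and at least 20728295 to 22679025 in WT, as recovered from the values themselves. Kdm6b was at 11.2, 11.1 and 12 TPM in KO, against 30.9, 30.3 and 30.7 TPM in WT, so its transcript was lower but still present in the knockout. Neuron markers were high, with a summed level of 6630 to 6725 TPM over 8 genes in KO and 6348 to 6383 TPM in WT, and 2 of the 8 were higher and 1 lower in KO by limma's adjusted p. Astrocyte and radial glia markers were also abundant, at 4584 to 4768 TPM over 10 genes in KO and 4380 to 4623 TPM in WT, and 2 of these 10 were higher and 2 lower in KO. Oligodendrocyte lineage markers summed to 653.2 to 679.9 TPM in KO and 650.6 to 688.8 TPM in WT, with 2 of the 7 tested lower in KO. Meningeal fibroblast and choroid plexus markers summed to 61.49 to 83.72 TPM in KO and 49.74 to 64.63 TPM in WT, with 3 of 7 tested higher in KO. Microglial markers were near 0 and endothelial and pericyte markers low, at most 4.17 and 19.7 TPM summed over 8 genes each in any library. Of 5 endothelial and pericyte markers tested, 0 were higher and 1 was lower in KO by limma's adjusted p. The 1 was Kdr, a receptor for vascular endothelial growth factor, at 60.9% of WT with an adjusted p of 0.0058 in limma. The list as a whole did not follow Kdr: 3 of the 5 log2 differences were positive and 2 negative, with a median of 0.162. The share called was 37.5% of neuron, 40% of astrocyte and radial glia, 28.6% of oligodendrocyte lineage and 42.9% of meningeal and choroid plexus markers tested. It was 20% of endothelial and pericyte markers, against 10.9% of all tested genes (4.15% higher and 6.74% lower). For 6 of the 7 meningeal and choroid plexus markers all KO libraries lay above all WT libraries, as for 12.5% of all tested genes. The part of non-neuronal cells in the results was not tested. In bulk RNA, fewer cells of a type and less RNA per cell cannot be told apart. Xist was at 224 to 241 TPM in KO and 70.8 to 77.7 TPM in WT, while 4 Y-linked genes summed to 0.149 to 0.754 TPM in KO and 91 to 93.9 TPM in WT. The mix of sexes and the genotype therefore cannot be told apart in any comparison below, although all 34 genes are autosomal.

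Most of the 34 genes differed little between the KO and WT cultures. With both directions together, the shares that follow were below or near those of all tested genes. Of the 34, all of which passed the filter on low values, 0 were higher and 1 was lower in KO at an adjusted p below 0.05 in limma, and the 1 was Hspa5. That is 2.94% of the genes, where 10.9% of all 14983 tested genes were called, 4.15% higher and 6.74% lower. At an unadjusted p below 0.05, 2 were higher and 7 were lower, 26.5% together, where the share among all tested genes was also 26.5% (10.3% higher and 16.2% lower). In limma voom on the recovered counts 2 were called higher, Eif2ak3 and P4hb, and 2 lower, Hspa5 and Dnajc3, against 17.5% of all tested genes (7.9% higher and 9.56% lower). The 3 KO libraries lay wholly below the 3 WT libraries for 8 genes and wholly above them for 1, which is 26.5% of the 34, against 31.7% of all tested genes (19.2% KO below and 12.5% KO above). At 12 of the 34 genes the exons of another annotated gene overlap, and no source used here says whether counting used strand.

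The median log2 difference, KO minus WT, was -0.024 over the 34 genes and -0.019 over all tested genes. The median absolute difference was 0.049 on the log2 scale, against 0.084 over all tested genes. The median SE was also smaller, at 0.042 against 0.059, and noise widens absolute differences, so these 2 medians are not like for like. No background matched for level was used. The differences of the 34 genes ran from -0.27 for Sdf2l1 to 0.14 for Eif2ak3. These differences are of log2(TPM + 0.5), which understates the change of low genes. The 95% interval of the KO to WT ratio lay within 1.1-fold in either direction for 16 of the 34 genes, within 1.2-fold for 28 and within 1.5-fold for 33. The exception to the last was Derl3, which had only 5 to 12 recovered counts per library. Of the 34 differences, 23 were negative as deposited, where 56.7% of the differences over all tested genes were negative, and 16 were negative once each library was centred on its median. Under quantile normalization 22 were negative. Among all tested genes 38.1% of the calls were higher in KO as deposited, 53.1% after median centring and 49.2% after quantile normalization. The summed level of the 34 genes was 3879, 3884 and 3792 TPM in the KO libraries and 3931, 3935 and 3951 TPM in the WT libraries. Every KO sum lay below every WT sum.

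**Figure D1:**
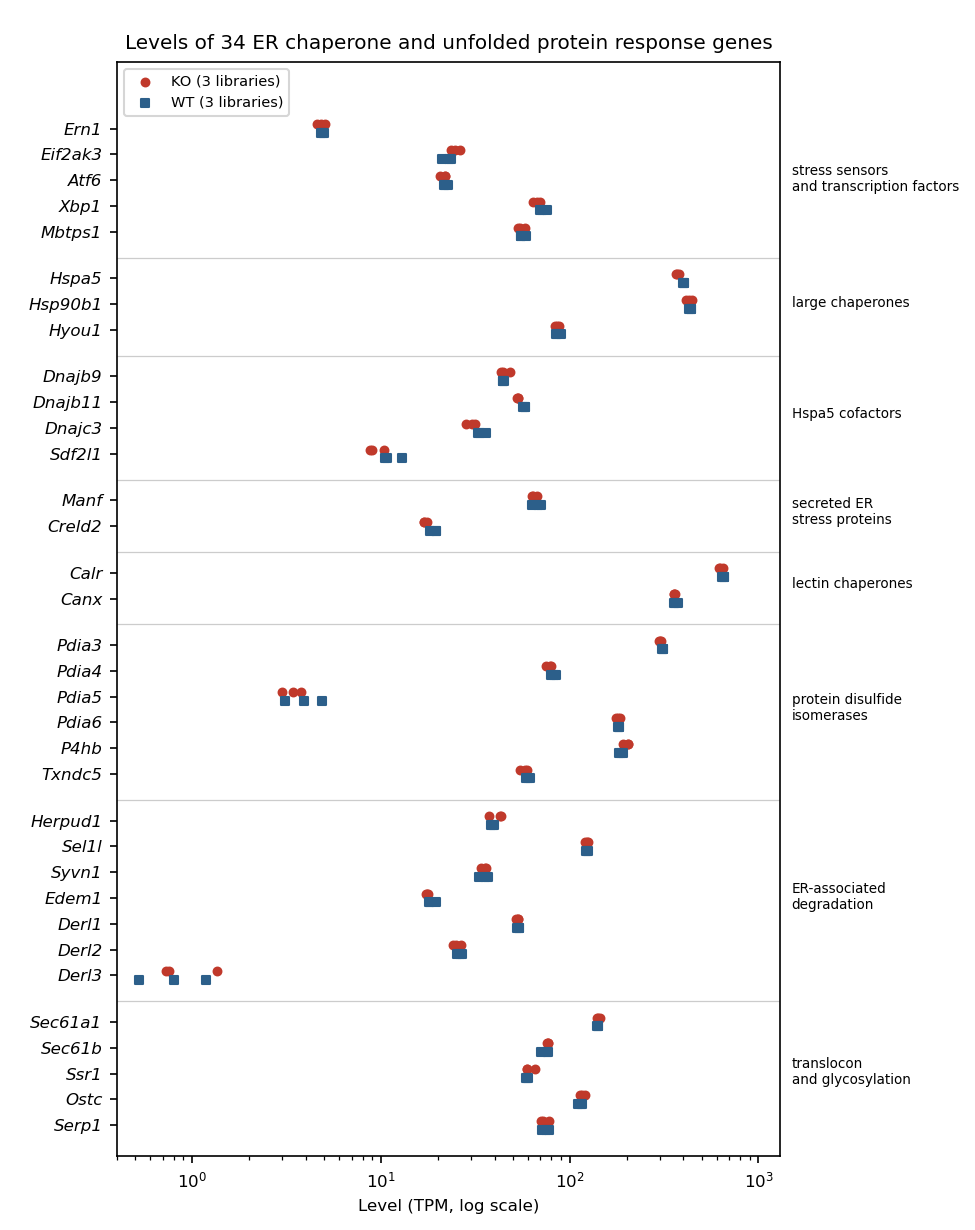
Level of each of the 34 genes in TPM on a log scale, with 1 point per library (KO circles above WT squares) and the genes grouped by role. For most genes the points of the 2 genotypes sit on top of each other, from below 1 TPM for Derl3 to 660.4 TPM for Calr in WT library 1.

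The group held some of the well expressed genes of these cultures. The mean over the 6 libraries was 0.893 TPM for Derl3 at the low end and 641.8 TPM for Calr at the high end. A mean of at least 100 TPM was reached by 10 of the 34 genes and a mean of at least 10 TPM by 31. Replicates were close: the SD within a group was 3.41% of the mean in KO and 2.9% in WT for the median gene of the 34, against 4.66% in KO and 4.73% in WT for all tested genes. It stayed under 5% for 25 of the 34 genes in KO and 27 in WT, and was highest for Derl3 in both.

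Among the sensors and their transcription factors (Ern1, Eif2ak3, Atf6, Xbp1 and Mbtps1), none of 5 passed the adjusted threshold in limma. At an unadjusted p below 0.05, 1 was higher and 1 was lower, where 10.3% and 16.2% of all tested genes were. Limma voom called 1 higher and 0 lower, against 7.9% and 9.56% of all tested genes. Ern1, the IRE1 sensor, was the least abundant of the 5 at 5.05, 4.58 and 4.79 TPM in KO, against 4.83, 5.02 and 4.96 TPM in WT. The libraries overlapped, and the log2 difference was -0.04 ± 0.09 (SE), with an adjusted p of 0.84 in limma. Atf6 was at 21.8, 20.6 and 21.8 TPM in KO, against 22.8, 21.9 and 21.5 TPM in WT, again with overlap and an adjusted p of 0.62 in limma. Mbtps1, the site-1 protease that makes the first cut in ATF6, was at 53.4, 54.6 and 58.2 TPM in KO, against 55.1, 55.2 and 58.4 TPM in WT. Its level was 98.5% of WT, with a 95% interval of 92.0% to 105.5%.

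Eif2ak3, which encodes PERK, was at 26.3, 23.4 and 24.8 TPM in KO, against 23, 21 and 23.4 TPM in WT. The lowest KO library was barely above the highest WT library. The log2 difference of 0.14 ± 0.06 (SE) did not pass in limma (adjusted p = 0.18; 0.043 to 0.40 over the alternatives), and of 16 alternatives only limma voom on recovered counts called it. One exon-overlapping gene on the opposite strand (Gm43292) is annotated at Eif2ak3, and reads from the pair cannot be told apart where strand was not used in counting. Xbp1 was at 67.4, 69.8 and 63.9 TPM in KO, against 69.6, 75.4 and 71.3 TPM in WT. Only 1 KO library, at 69.8 TPM, reached into the WT range. Its log2 difference was -0.10 ± 0.04 (SE), with an adjusted p of 0.18 in limma. These gene totals do not separate spliced from unspliced Xbp1, so the output of IRE1 was not measured.

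Hspa5 encodes BiP, the Hsp70 chaperone of the ER lumen, which binds unfolded chains and keeps the sensors inactive. The gene lies on chromosome 2 (chr2:34771970-34777547, plus strand, GRCm38, GENCODE M21), and no other annotated gene overlaps its exons. It was at 370.7, 378.3 and 365.9 TPM in KO, against 396.9, 404.3 and 404.5 TPM in WT. All 3 KO libraries were below all 3 WT libraries, and the groups stood apart by more than their own spread. The mean was 371.6 ± 6.27 TPM in KO and 401.9 ± 4.34 TPM in WT (SD, n = 3 each), so KO stood at 92.5% of WT. The log2 difference was -0.11 ± 0.02 (SE), with a 95% interval of 89.2% to 95.8% of WT and an adjusted p of 0.017 in limma. The size was stable at -0.13 to -0.09 over 16 alternatives, but the adjusted p ran from 0.015 to 0.089, and 5 of the 16 lost the call. Leaving out KO library 1, KO library 3 or WT library 2 gave adjusted p-values of 0.054, 0.065 and 0.062 in limma.

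Neither of the other large chaperones passed in limma. Hsp90b1, the ER Hsp90 known as GRP94, was at 443.8, 429.8 and 414.3 TPM in KO, against 426.1, 439.5 and 437.6 TPM in WT. KO library 1 was the highest of all 6 and KO library 3 the lowest, and the adjusted p was 0.76 in limma. Within each library the level of Hspa5 was 0.835, 0.880 and 0.883 times that of Hsp90b1 in KO, against 0.931, 0.920 and 0.924 times in WT. Relative to Calr the gap was narrower, with Hspa5 at 0.592, 0.585 and 0.594 times in KO and 0.601, 0.627 and 0.617 times in WT. Such ratios restate the library levels and are no separate test. Hyou1, an Hsp110-type exchange factor for BiP, was at 85.7, 87.4 and 83.3 TPM in KO and 85.7, 89.9 and 85.1 TPM in WT, with an adjusted p of 0.71 in limma.

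**Figure D2:**
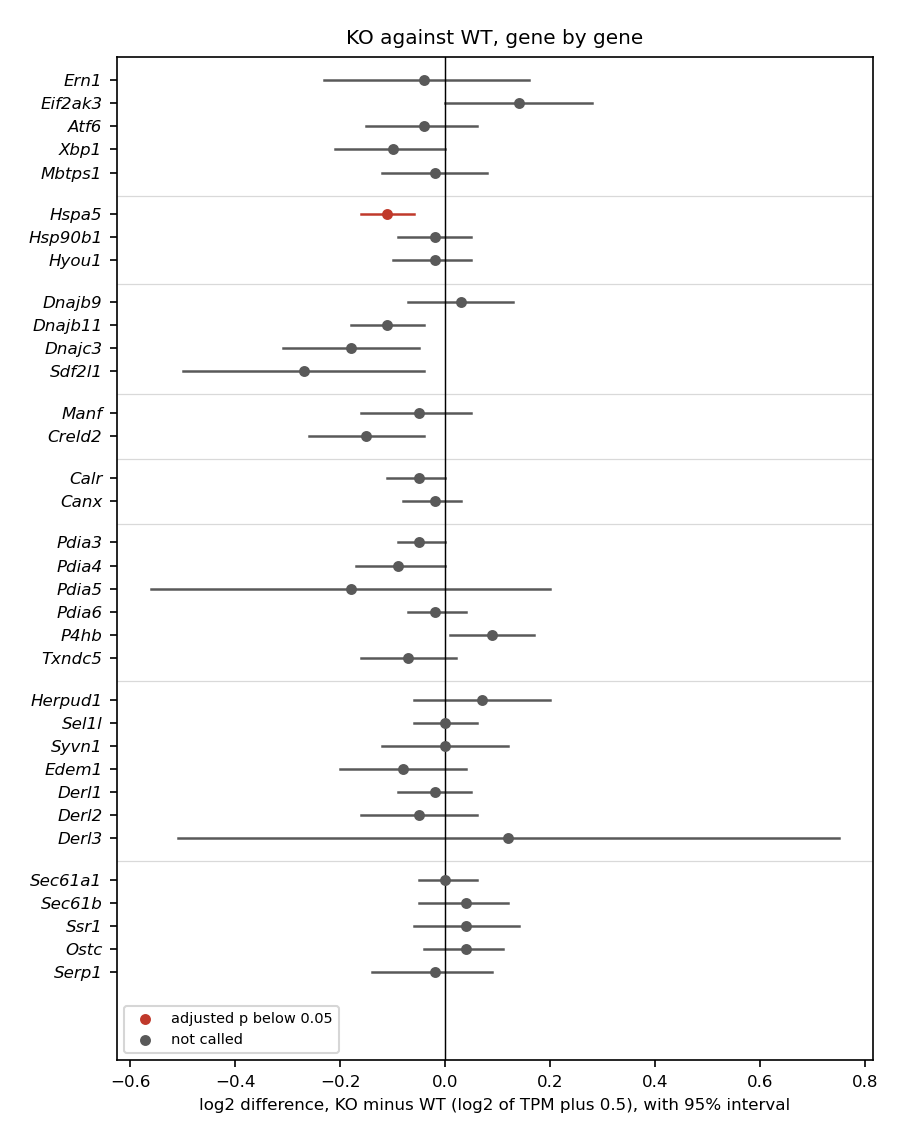
Difference of each of the 34 genes in log2(TPM + 0.5), KO minus WT, with its 95% interval from limma. Hspa5, in red, is the 1 gene with an adjusted p below 0.05, and the intervals of Pdia5 and Derl3 are the widest.

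Chaperone promoters of this response are known for the ER stress element, which the factors NF-Y and ATF6 or XBP1 bind as a CCAAT box and a CCACG box separated by 9 bases. RefSeq windows on GRCm38.p6, from 250 bases before to 50 bases after the start, were available for 28 of the 34 genes. Those boxes with exactly 9 bases between them, on either strand, were found in 9 of these 28 windows (32.1%) and in 0.137% of the 27025 genes with a window. The genes were Hspa5, Hsp90b1, Dnajc3, Creld2, Calr, Canx, Pdia6, Syvn1 and Derl3. Whether the element has a part in the call of Hspa5 was not tested. A stretch of 7 of the 9 genes is printed, both from the gene called lower in KO and from genes that were not called. Each is given 5′ to 3′ on the strand that reads CCAAT to CCACG, and the capitals mark those boxes.
Hspa5 (chr2:34772020-34772048, plus strand): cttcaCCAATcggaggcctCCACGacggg
Hsp90b1 (chr10:86705608-86705686, minus strand): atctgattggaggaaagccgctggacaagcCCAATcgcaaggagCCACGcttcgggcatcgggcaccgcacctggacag
Dnajc3 (chr14:118937797-118937875, plus strand): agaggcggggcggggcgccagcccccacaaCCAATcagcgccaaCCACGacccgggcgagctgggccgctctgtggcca
Creld2 (chr15:88819490-88819568, minus strand): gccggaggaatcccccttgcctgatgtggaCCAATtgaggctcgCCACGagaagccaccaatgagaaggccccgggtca
Calr (chr8:84847045-84847123, plus strand): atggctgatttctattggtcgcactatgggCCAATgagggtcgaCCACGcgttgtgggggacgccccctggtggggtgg
Canx (chr11:50325770-50325848, minus strand): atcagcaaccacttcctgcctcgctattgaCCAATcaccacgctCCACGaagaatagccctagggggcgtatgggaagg
Pdia6 (chr12:17266461-17266539, plus strand): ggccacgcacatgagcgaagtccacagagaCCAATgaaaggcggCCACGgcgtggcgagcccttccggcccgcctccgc

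The element began 65 bases before the RefSeq start in Hspa5, within the bounds that GENCODE gives this gene, 105 in Dnajc3, 145 in Canx and 162 in Calr, counted in the direction of the gene. Hsp90b1 held a second match, on the other strand, 107 bases before its start. The median log2 difference was -0.025 over the 9 genes with the element and -0.036 over the others with a window, and the 9 ran from -0.18 to 0.12 with 1 called lower and 0 higher in limma. The second form of the element, ATTGG and CCACG boxes with 1 base between them, was searched on both strands too and was in the windows of Dnajb11 and Herpud1, 7.14% of the 28, and in 0.0444% of all genes. TGACGTGG, the core of the UPR element, was in 1 of the 28 windows, that of Txndc5, and in 0.714% of all genes. TGATGNAAT, a form of the composite site that ATF4 is known to bind with C/EBP proteins, was in 0 of the 28 windows. It was in 1 of 19 windows of PERK arm genes (Nupr1) and in 1.08% of all genes. A match is a run of letters and no measured binding. Only these exact letters and spacings within the windows were counted, so a window without a match may still hold another form of a site.

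The cofactors of BiP had lower values in KO for 3 of 4 genes, none of which passed the adjusted threshold in limma. Unadjusted, 3 of the 4 were lower at p below 0.05, where 16.2% of all tested genes were, and limma voom called 0 higher and 1 lower, where it called 9.56% of all tested genes lower. Dnajb11, the J-domain protein ERdj3, was at 53.3, 53.5 and 52.7 TPM in KO, against 57.8, 58 and 56.3 TPM in WT. The 2 groups did not overlap and were tight, with SDs of 0.413 TPM in KO and 0.895 TPM in WT. Its log2 difference of -0.11 ± 0.03 (SE) equalled that of Hspa5 to 2 decimals, and its adjusted p was 0.052 in limma, with 0.049 to 0.15 over the alternatives.

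Dnajc3, the J-domain protein p58IPK that also inhibits PERK, was at 30.3, 31.4 and 28.3 TPM in KO, against 33.3, 32.7 and 36.2 TPM in WT. The groups did not overlap, and the log2 difference was -0.18 ± 0.06 (SE) with an adjusted p of 0.08 in limma. It ranged from 0.011 in limma voom to 0.20 over the alternatives. Sdf2l1, a partner of the ER J-domain proteins, was at 8.94, 10.4 and 8.74 TPM in KO, against 10.5, 10.8 and 12.9 TPM in WT. The log2 difference was -0.27 ± 0.10 (SE), on only 64 to 107 recovered counts per library, with an adjusted p of 0.13 in limma. The highest KO library lay just under the lowest WT library. Dnajb9, or ERdj4, was the member of this set without a lower value, at 48.2, 43.5 and 44.5 TPM in KO and 44.3, 44.2 and 44.6 TPM in WT. Over the 4 cofactors the median log2 difference was -0.145.

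Manf and Creld2 encode small proteins that are secreted on ER stress. Creld2 was at 17, 17.6 and 17 TPM in KO, against 18.3, 19.5 and 19.5 TPM in WT. Its libraries did not overlap, at 89.9% of WT, with a 95% interval of 83.3% to 97.5% and an adjusted p of 0.096 in limma. Manf was at 63.9, 67.2 and 62.9 TPM in KO and 63.4, 70.1 and 67.9 TPM in WT, with overlap and an adjusted p of 0.52 in limma. For the pair, 0 were called higher or lower by limma and by limma voom. An unadjusted p below 0.05 was found for 1 of them, and for 26.5% of all tested genes.

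**Figure D3:**
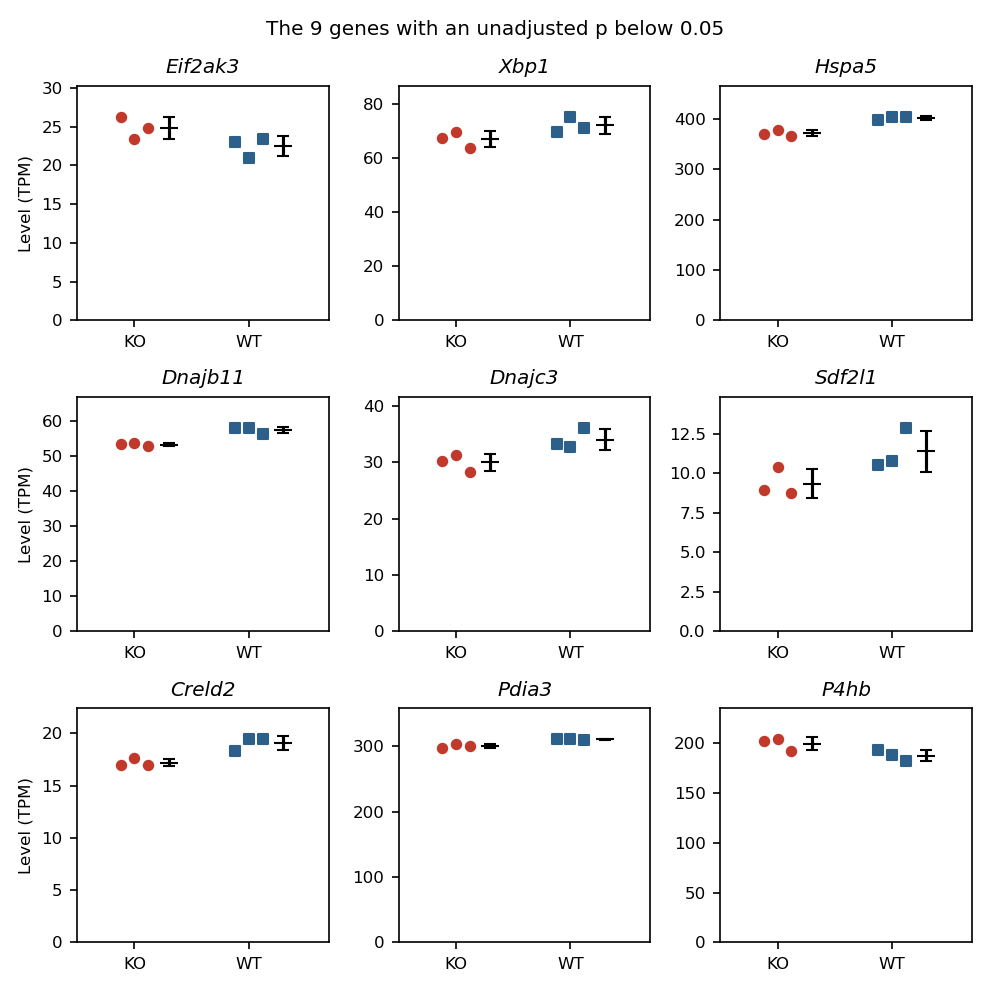
Level in TPM of the 9 genes with an unadjusted p below 0.05, by library (KO circles left of WT squares), with the mean and SD (n = 3 each) beside each group and every axis starting at 0. Hspa5, Dnajb11, Dnajc3, Sdf2l1, Creld2, Pdia3 and Xbp1 have the lower mean in KO, Eif2ak3 and P4hb the higher, and the P4hb and Xbp1 libraries overlap.

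The lectin chaperones calreticulin (Calr) and calnexin (Canx), which hold glycoproteins during folding, did not pass. Calr, the most abundant of the 34 genes, was at 626.1, 647.2 and 616.4 TPM in KO, against 660.4, 644.4 and 656.1 TPM in WT. KO library 2 lay within the WT range, and the level was 96.4% of WT with an interval of 92.6% to 100.2% and an adjusted p of 0.22 in limma. Canx was at 362.5, 355.9 and 356.9 TPM in KO, against 361.9, 358.0 and 374.2 TPM in WT. The groups overlapped, and the 95% interval of Canx was 94.6% to 102.2% of WT. Limma and limma voom called 0 of the pair, and 0 had an unadjusted p below 0.05, where 26.5% of all tested genes did.

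The 6 protein disulfide isomerases, which form and rearrange disulfide bonds, gave values on both sides of WT. Limma called none of them, and 1 was higher and 1 lower at an unadjusted p below 0.05, where 10.3% and 16.2% of all tested genes were. Limma voom called 1 higher and 0 lower, against 7.9% and 9.56% of all tested genes. P4hb, the founding isomerase PDI and also a subunit of collagen prolyl hydroxylase, was at 202.4, 204.6 and 191.7 TPM in KO, against 192.7, 187.8 and 181.7 TPM in WT. KO library 3 fell below WT library 1, so the groups overlapped by that pair. The log2 difference was 0.09 ± 0.03 (SE), with an adjusted p of 0.14 in limma and 0.026 in limma voom. Pdia3, or ERp57, the partner of calreticulin and calnexin, was at 298.1, 303.6 and 300.5 TPM in KO, against 311.2, 311.9 and 310.0 TPM in WT. Its groups did not overlap and its replicates were very tight, but at 96.7% of WT the adjusted p was 0.17 in limma. One opposite-strand gene, Catsper2, overlaps its exons. The level of P4hb relative to Pdia3 was 0.679, 0.674 and 0.638 in KO and 0.619, 0.602 and 0.586 in WT, which restates the levels above.

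Pdia4 (ERp72) was at 79.4, 79.1 and 74.7 TPM in KO, against 85, 79.7 and 82.7 TPM in WT. The groups were separated by a narrow gap, and the adjusted p was 0.19 in limma. Pdia6 and Txndc5 overlapped between the groups, at 99.0% and 95.4% of WT. Pdia5 was low and scattered, at 3.01 to 3.78 TPM in KO and 3.09 to 4.88 TPM in WT, and its interval of 68.0% to 114.7% of WT allows a change of either sign.

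ER-associated degradation moves misfolded proteins back to the cytosol. None of its 7 members here passed in limma or in limma voom, and 0 had an unadjusted p below 0.05, where 26.5% of all tested genes did. Sel1l and Syvn1, the scaffold and the ubiquitin ligase (HRD1) of the central complex, stood at 100.3% of WT (interval 96.2% to 104.5%) and 100.0% (92.3% to 108.4%). Herpud1, a membrane component of that complex and a target of ATF4 as well as ATF6, was at 43.2, 37.4 and 42.6 TPM in KO, against 39.1, 38.3 and 39.7 TPM in WT. KO libraries 1 and 3 were above all WT libraries and KO library 2 was below them, and the adjusted p was 0.50 in limma. Edem1, a lectin-like mannosidase that directs glycoproteins to degradation, had KO libraries of 17.4 to 17.8 TPM just under WT libraries of 17.9 to 19.5 TPM, with an adjusted p of 0.39 in limma. Derl1 and Derl2, membrane proteins of the retrotranslocation channel, were at 98.6% and 96.7% of WT. Derl3, the derlin of secretory tissues, was nearly absent, at 0.731 to 1.36 TPM in KO and 0.525 to 1.19 TPM in WT.

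The translocon and its partners were at nearly the same level in both genotypes. Of Sec61a1 and Sec61b (the channel), Ssr1 (a translocon-associated protein), Ostc (a subunit of the oligosaccharyltransferase) and Serp1 (a stress-linked translocon protein), 0 of 5 were called by limma or limma voom. An unadjusted p below 0.05 was found for 0 of the 5, and for 26.5% of all tested genes. Their log2 differences ran from -0.02 to 0.04. Sec61a1 was at 138.7, 140.9 and 144.1 TPM in KO, against 139.8, 141.4 and 141.1 TPM in WT, which bounds any difference to 96.4% to 104.3% of WT. The summed level of the 5 genes was 464.3 to 475.1 TPM in KO and 461.9 to 464.6 TPM in WT.

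A further 140 genes of the same pathway were listed in 6 sets, of which 138 were found and 132 were tested. In limma 9 were higher and 1 was lower in KO, which is 7.58% where the background is 10.9%. Of the 9 higher genes 7 belonged to the PERK arm and the wider integrated stress response, which other kinases than PERK can also start. In the other 5 sets 2 were higher and 1 was lower among 112 tested genes, 2.68%.

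Among 16 other disulfide isomerases and oxidases 1 was higher and 1 lower in limma, 12.5% against 10.9% of all tested genes. At an unadjusted p below 0.05, 3 were higher and 2 lower, where 10.3% and 16.2% of all tested genes were. Limma voom called 3 higher and 1 lower, against 7.9% and 9.56% of all tested genes. Ero1l, an older symbol of Ero1a, the oxidase that recharges the isomerases, was at 106.1, 80.6 and 82.8 TPM in KO, against 58.5, 71.7 and 59 TPM in WT. KO library 1 stood far above the other two, all 3 were above WT, and the log2 difference was 0.50 ± 0.11 (SE) with an adjusted p of 0.031 in limma. The call was lost in 8 of 16 alternatives (adjusted p 9.5e-07 to 0.11), among them those without KO library 1 or 3 or WT library 1 or 3. Prdx4, the ER peroxiredoxin, was at 34.3, 37.4 and 32.9 TPM in KO, against 39.4, 41.7 and 41 TPM in WT. It fell to 85.6% of WT with an adjusted p of 0.032 in limma, which was lost in 9 of 16 alternatives (0.019 to 0.099), including the omission of any 1 library other than KO library 2.

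Of 21 genes of glycoprotein folding and the oligosaccharyltransferase 1 was higher and 0 lower in limma, 4.76% against 10.9% of all tested genes. At an unadjusted p below 0.05, 2 were higher and 2 lower, and limma voom called 1 higher and 0 lower. Limma called Krtcap2, a subunit of the oligosaccharyltransferase, at 136.7, 141.2 and 138.4 TPM in KO against 123.1, 123.4 and 124.0 TPM in WT. Its groups lay far apart relative to their spread, with an adjusted p of 0.0045 in limma and the call kept in all 16 alternatives. In 24 genes of the translocon, signal peptidase and signal recognition particle limma called 0, with 1 higher and 0 lower at an unadjusted p below 0.05 and 0 called by limma voom. The smallest p-values there were those of Srprb, at 110.1% of WT, and Sec63, at 106.7% of WT, with adjusted p of 0.15 and 0.22 in limma. In 24 further degradation genes limma called 0, with 1 higher and 2 lower unadjusted and 1 higher and 0 lower by limma voom. Vimp, at 89.9% of WT, and Selk, at 107.1%, had adjusted p of 0.075 and 0.094 in limma. In 27 other transducers and folding factors limma called 0, with 2 higher and 2 lower unadjusted and 1 higher and 1 lower by limma voom. Creb3l1, a membrane-bound transcription factor related to ATF6, was at 120.6% of WT, and Wfs1, an ER calcium regulator, at 88.6%, with adjusted p of 0.07 and 0.071 in limma. Over all tested genes 10.3% were higher and 16.2% lower at an unadjusted p below 0.05. There limma voom called 7.9% higher and 9.56% lower.

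Genes of the PERK arm and the integrated stress response were higher in KO in part of their list. Of its 20 genes 7 were higher and 0 lower in limma, 35% against 4.15% of all tested genes called higher. At an unadjusted p below 0.05, 13 were higher and 0 lower, where 10.3% and 16.2% of all tested genes were. Limma voom called 12 higher and 0 lower, against 7.9% and 9.56% of all tested genes. The count of higher genes ran from 4 to 12 over the alternatives, with 4 when KO library 2 was left out and 4 without a variance trend. The median log2 difference was 0.209, against -0.024 for the 34 chaperone and sensor genes. Atf4, the transcription factor at the centre of this arm, was at 244.0, 226.8 and 231.0 TPM in KO, against 197.5, 202.7 and 187.8 TPM in WT. The 3 KO libraries were all above the WT libraries, with a log2 difference of 0.25 ± 0.04 (SE) and an adjusted p of 0.0054 in limma. Atf5 rose to 164.1% of WT, Chac1, which degrades glutathione, to 170.5%, and Ddit4, an inhibitor of mTORC1 signalling, to 117.3%, with adjusted p of 0.00046, 0.005 and 0.012 in limma. The call of Ddit4 was lost without a variance trend (adjusted p = 0.057 in limma; 2.4e-05 to 0.057 over the alternatives). Also called higher were Ddit3 at 122.4% of WT, Trib3 at 204.0% and Atf3 at 283.6%. Their adjusted p-values were 0.016, 0.015 and 0.012 in limma, and Atf3 had only 8 to 34 recovered counts per library. Ddit3 lost its call in 4 alternatives, Trib3 in 4 and Atf3 in 2. The list was drawn up with earlier results of these data known, in which genes of this response were already seen to be higher, so its direction is not independent evidence.

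**Figure D4:**
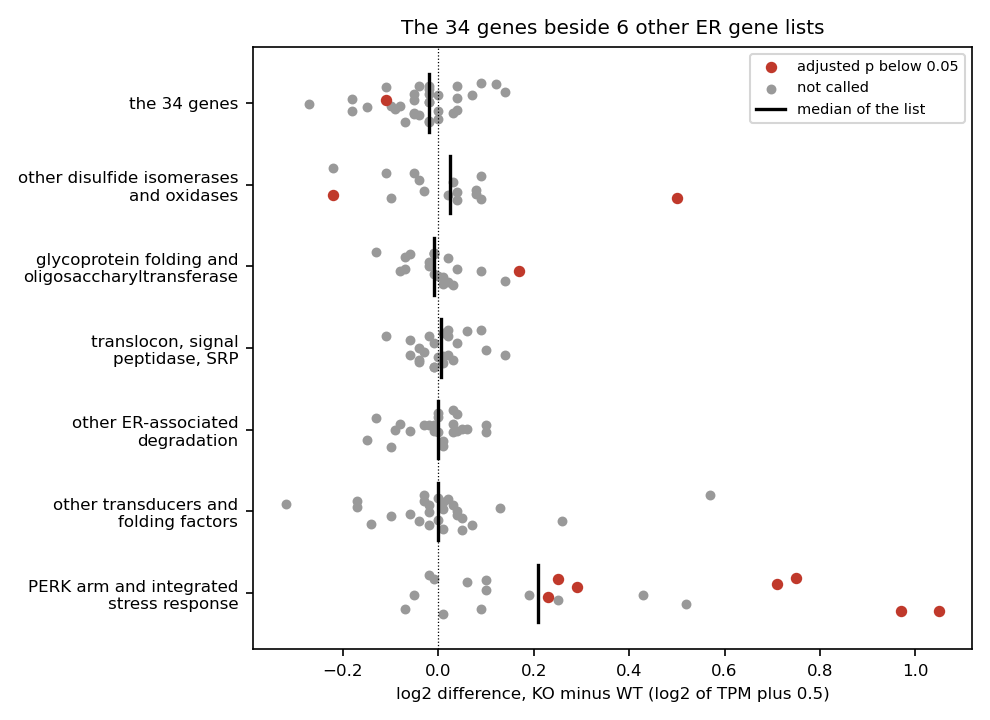
Difference of each tested gene in log2(TPM + 0.5), KO minus WT, for the 34 genes and for 6 other ER gene lists, with the median of each list as a black bar and genes with an adjusted p below 0.05 in red. The median of the PERK arm list is 0.209 and that of the 34 genes -0.024, and points are spread vertically only to keep them apart.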

How the data were processed

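mRNA-seq values of 3 KO and 3 WT samples were used as deposited by the authors in 1 table, with groups taken from the sample labels. The deposited values are TPM: each column sums to 1000000, although the table's name says FPKM. The planned log-scale test suits either unit. The submitters' processing notes name TopHat, featureCounts, edgeR, Picard 1.127, FastQC 0.11.2 and bcl2fastq 2.17 and the mouse build mm10, without roles. No source used here gives the annotation or the strand setting. Of the 20040 entries, 671 were 0 in all libraries, 27 names had become dates and 2 names were repeated. No other value column was present. TPM is relative, so a rise in abundant genes lowers all others.

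Entries with a mean of at least 0.5 TPM (14983) were compared, KO minus WT, by limma 3.58.1 in R 4.3.3 on log2(TPM + 0.5), with a variance trend, no covariates and Benjamini-Hochberg adjustment over all of them. A gene was called at an adjusted p below 0.05. The 95% intervals use limma's moderated 7.88 degrees of freedom. "Percent of WT" is the ratio of group means, and its interval comes from the log2 difference.

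Whole counts were recovered from the TPM steps for all 19369 entries above 0 (100.0%; tolerance 0.001 counts, plus 2e-09 relative). A simulation with known counts returned 13338 of 13455 genes with a mean of at least 20 counts exactly (99.1%). A factor shared by all libraries of a gene cannot be seen, so these counts are lower limits. They served for depth and for limma voom, an alternative chosen after seeing the data. Replicates were not copies of each other: they differed beyond counting noise (median chi-square 1.26 to 2.03 times its expectation, 2.72 to 3.69 across groups).

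The 34 genes, the gene lists and the naming rule were chosen with earlier results of these data known. All 34 genes are given, the 11 sensors and abundant chaperones of the rule with every library, and in each list up to 4 genes that passed or the 2 with the smallest p. Values per library for further genes, and the further called genes of the PERK arm list, were added after their values were seen. Promoter windows were RefSeq's on GRCm38.p6, and positions and exon overlaps GENCODE M21's on GRCm38. No window was given for Atf6, Hyou1, Manf, Derl1, Sec61a1 and Ostc. Alternatives were the pseudocount, the filter, the scaling, the variance model, a replicate block and each library left out. The analysis was tested on simulated data. The other 2 listed symbols are not analysed here.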

Additional observations from a re-analysis of the deposited data

How the results depend on the processing

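No named gene with a call changed direction in any of the alternatives run. The median log2 difference of all tested genes was -0.019 as deposited, 0.007 after median centring and 0.006 after quantile normalization. That of the 34 genes was -0.024, 0.001 and -0.014 in turn, so its sign depended on the scaling. Of the 34 genes, 0 were higher and 1 lower in limma. The lower count was 2 with no filter on low values or a filter at a mean of 2 TPM, both adding Dnajb11, and 0 without a variance trend. In limma voom 2 were higher and 2 lower. Leaving out 1 library at a time gave 0 to 0 higher and 0 to 1 lower.

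For the other 132 tested ER genes, 9 were higher and 1 lower. Median centring gave 14 higher, no variance trend 5 higher and 0 lower, limma voom 18 higher and 2 lower, and no filter 0 lower. Leaving out 1 library gave 6 to 11 higher and 0 to 2 lower; Prdx4 lost its call with each of 5 libraries left out (all but KO library 2), and Ddit3, Trib3 and Atf3 with 3, 3 and 2 of them.

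The replicate numbers did not pair the samples: deviations of same-numbered libraries correlated at 0.008, -0.051 and 0.011. With the replicate block, members lower fell to 0 (Hspa5 adjusted p = 0.063), the other ER genes gave 0 lower, and over all genes 360 were higher and 585 lower. Depth limits chiefly Derl3, with 5 to 12 counts per library, and Pdia5, with 36 to 63, where the wide intervals allow changes that could not be detected.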
